A study of Mus musculus with 80 samples.

Results

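The 43 genes described here are Pax genes and homeobox genes outside the Hox clusters that pattern the embryo (8 Pax genes, and members of the Lhx, Nkx, Dlx, Irx, Msx, Meis and related homeobox families). They were chosen by symbol, and all 43 have a row among the 24508 gene symbols of 5 expression tables. The tables hold RNA-seq of mouse embryonic stem cells (day 0) and of hanging-drop embryoid bodies at days 3, 6 and 9, and PRO-seq of the stem cells, in which engaged RNA polymerases extend their transcripts in isolated nuclei, so that nascent transcription is read. Each table has 2 wild type (WT) and 2 knockout (KO) libraries.

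All libraries came from 1 conditional stem cell line on a C57Bl/6 background that was kept feeder-free in medium with serum and LIF. The line carries both floxed alleles of Mll2 (gene symbol Kmt2b) and 1 CreERT2 allele, in WT and KO cells alike. WT cells received the carrier and KO cells 10-6 M 4-hydroxytamoxifen for 96 h before day 0, so that deletion and drug came together in every comparison. The day 0 libraries are labelled as embryoid bodies but are, by the growth protocol, the stem cells before differentiation.

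Pax and homeobox proteins are transcription factors that bind DNA through a homeodomain, a paired domain or both, and give cells of the embryo a regional or lineage identity. In stem cells the promoters of many such genes are rich in CpG dinucleotides and carry the trimethylated histone H3 lysine 4 mark together with the Polycomb mark on lysine 27, a state called bivalent in which little mature RNA is made. MLL2 is a histone H3 lysine 4 methyltransferase with a CXXC domain that binds unmethylated CpG, and it acts at such promoters. The question for these genes is therefore how their nascent transcription and their RNA differ once Mll2 is deleted, in stem cells and during differentiation.

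RefSeq promoter windows (GRCm38.p6, 250 bases before to 50 after the start) were found for 34 of the 43 genes, with 41 windows in all. Taking for each gene its window with the most CpG dinucleotides, the median was 22.5 per window over these 34 genes, with a range of 4 in Lhx8 to 50 in Barx1. Over all 27025 genes with a window the median was 8. At least 10 CpG were present in 30 of the 34 (88.2%) and in 45.8% of all genes. The sequences of the 4 genes on which most results below turn are shown, with every CG in capitals, to show the CpG density behind these counts. They lie at chr1:89931127-89931426 on the minus strand (Gbx2, 27 CpG), chr19:44756656-44756955 on the plus strand (Pax2, 30 CpG), chr13:72628570-72628869 on the plus strand (Irx2, 25 CpG) and chr2:116064570-116064869 on the minus strand (Meis2, 13 CpG). Pax2 has 3 windows, of which the poorest holds 7 CpG.
Gbx2: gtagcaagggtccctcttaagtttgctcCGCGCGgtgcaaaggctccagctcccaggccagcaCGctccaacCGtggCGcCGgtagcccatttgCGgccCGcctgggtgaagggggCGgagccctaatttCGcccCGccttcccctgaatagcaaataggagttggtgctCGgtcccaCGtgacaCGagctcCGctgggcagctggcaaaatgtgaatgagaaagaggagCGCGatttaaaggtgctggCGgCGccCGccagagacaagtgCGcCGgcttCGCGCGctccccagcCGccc
Pax2: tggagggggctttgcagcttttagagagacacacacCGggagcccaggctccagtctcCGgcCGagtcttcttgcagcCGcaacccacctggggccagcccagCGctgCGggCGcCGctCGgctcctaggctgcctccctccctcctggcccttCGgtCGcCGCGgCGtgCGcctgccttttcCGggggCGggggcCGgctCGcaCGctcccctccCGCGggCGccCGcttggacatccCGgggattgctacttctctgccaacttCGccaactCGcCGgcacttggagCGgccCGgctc
Irx2: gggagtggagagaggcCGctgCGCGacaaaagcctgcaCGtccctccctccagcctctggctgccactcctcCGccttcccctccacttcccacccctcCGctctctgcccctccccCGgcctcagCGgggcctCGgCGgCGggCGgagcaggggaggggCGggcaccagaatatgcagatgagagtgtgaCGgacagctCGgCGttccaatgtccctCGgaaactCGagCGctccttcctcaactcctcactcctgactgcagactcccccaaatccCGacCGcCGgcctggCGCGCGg
Meis2: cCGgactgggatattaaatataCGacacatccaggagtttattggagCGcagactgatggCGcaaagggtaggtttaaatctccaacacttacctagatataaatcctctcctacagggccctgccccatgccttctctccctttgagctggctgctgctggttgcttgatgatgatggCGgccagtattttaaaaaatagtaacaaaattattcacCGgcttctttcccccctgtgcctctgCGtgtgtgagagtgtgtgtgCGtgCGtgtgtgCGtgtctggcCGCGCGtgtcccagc
At least as many CpG as in these windows were found in 17.1% of all genes for Gbx2, 12.9% for Pax2, 20.2% for Irx2 and 40.4% for Meis2. The Meis2 window is the least CpG-rich of the 4.

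FPKM values (fragments per kilobase of gene length, scaled between libraries) fell on whole multiples of the value of 1 read. The reads on genes recovered in this way numbered 29018994 to 34476635 in the RNA libraries and 16328550 to 20048258 in the PRO-seq libraries. The scaling was not by these totals alone. Factors that bring the libraries to equal totals were 0.929 to 1.04 in RNA and 0.906 to 1.07 in PRO-seq. The 10 most abundant genes took 5.56 to 7.51% of RNA reads and 45.9 to 54.2% of PRO-seq reads. Kmt2b FPKM, which covers the whole gene and not only the deleted part and so is no direct check of the deletion, were 9.44 and 11.8 in WT against 9.46 and 9.49 in KO at day 0, and 11.9 and 13.9 against 13.8 and 15.8 in PRO-seq. They were 14.9 and 17.1 against 6.67 and 7.27 at day 3, 16.4 and 14.3 against 8.41 and 7.88 at day 6, and 15.5 and 13.3 against 10.8 and 6.94 at day 9. Kmt2b fell at day 3, with a log2 fold change of -1.09 (SE 0.10, limma adjusted p = 0.00464), and at day 6, with -0.84 (SE 0.11, limma adjusted p = 0.00762). At day 0, at day 9 and in PRO-seq the limma adjusted p-values were 0.814, 0.106 and 0.497. Nothing in the labels states that the replicates were grown as separate cultures. All p-values therefore refer to the spread between libraries, part or all of which may be technical.

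In WT stem cells most of these genes had little mature RNA and more nascent RNA. Over the 4 day 0 libraries, WT and KO together, the median gene of the 43 had a mean of 0.0752 FPKM, or 6 reads per library. Six6 and Lhx8, regulators of eye and forebrain neurons, had no read in any of these libraries. A count of 0 in a library allows up to 3 reads, and this limit covers counting error only. In PRO-seq, again over WT and KO together, the median of the 43 was 0.636 FPKM and 28.75 reads, and every gene had reads. The median over all 24508 genes was 0.564 FPKM at day 0 and 2.62 FPKM in PRO-seq. The mean WT PRO-seq FPKM was above the mean WT RNA FPKM in 42 of the 43 genes, against 52.3% of all 24508 genes. Meis2 was the exception, at 0.692 and 0.699 FPKM. Among genes with under 1 RNA FPKM, PRO-seq was the higher value in 85.3% of all 9604 and in 40 of 41 (97.6%) here. The 2 scales are comparable only in part. The same spliced gene lengths fitted both assays (2126 bases for Gbx2), and whether PRO-seq reads in introns were counted is not given in the sources used here.

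**Figure D1:**
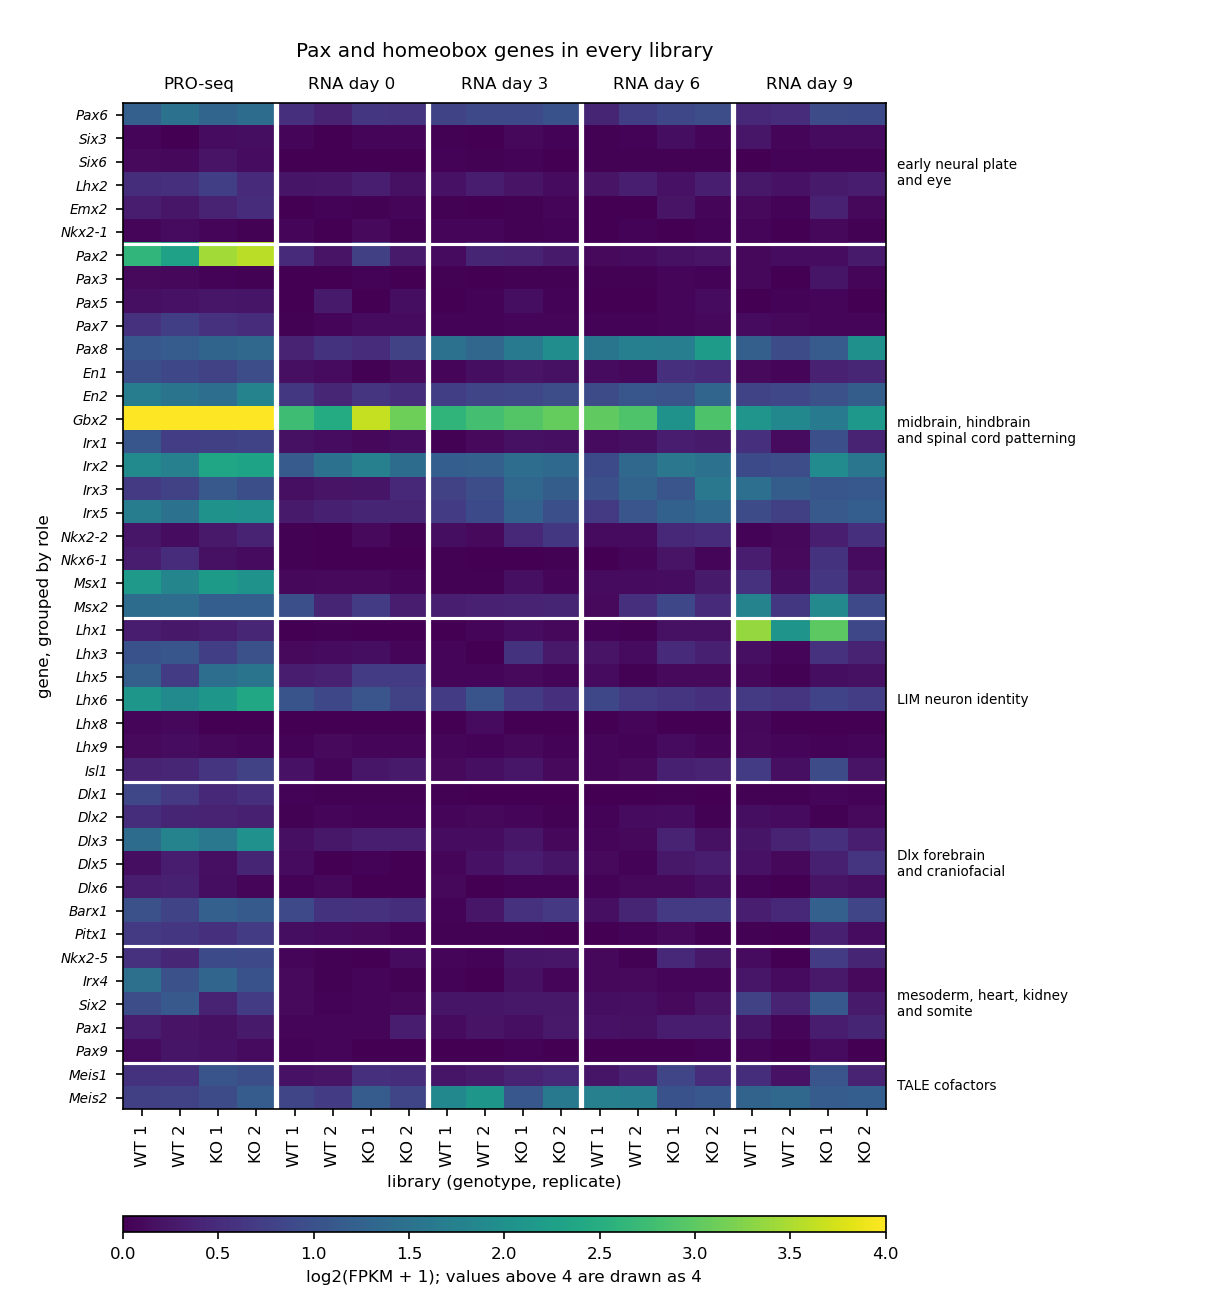
Level of all 43 genes in every library, as log2(FPKM + 1) in colour, with libraries in columns by table and genes in rows by role; values above 4 are drawn at 4. The PRO-seq columns are lighter than the RNA columns for most genes, Gbx2 is the brightest row in PRO-seq, and Lhx1 stands out at day 9.

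Gbx2, which sets the hindbrain side of the midbrain-hindbrain boundary and in stem cells is a target of LIF signalling, was the gene with the highest level in PRO-seq and at days 0, 3 and 6. Its PRO-seq FPKM were 24.4 and 24.7 in WT and 40.4 and 47.0 in KO, and its day 0 RNA FPKM 5.73 and 4.51 in WT and 11.5 and 7.67 in KO. Pax2, a gene of the same boundary, the eye stalk and the kidney, ranked next in PRO-seq with 5.22 and 3.88 FPKM in WT and 9.84 and 10.99 in KO. Its RNA stayed low, at 0.388 and 0.162 FPKM in WT and 0.693 and 0.218 in KO at day 0. Lhx6, a gene of migrating forebrain interneurons, had the third level in both assays, at 3.32 and 2.78 against 3.34 and 4.23 FPKM in PRO-seq and 1.05 and 0.829 against 1.08 and 0.729 at day 0. Both KO libraries lay above both WT libraries for Gbx2 in both assays and for Pax2 in PRO-seq, whereas the groups overlapped for Pax2 RNA and, at day 0, for Lhx6.

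Nascent transcription of Gbx2 and Pax2 rose in KO stem cells. Of the 43 genes 14 had a mean of at least 1 FPKM in PRO-seq and were tested with all 14535 such genes. The 2 called ones, Pax2 and Gbx2, were higher (limma on log2(FPKM + 1), called at a Benjamini-Hochberg adjusted p under 0.05; 1.5% of all tested genes were called in either direction and 0.667% as higher). The scale understates differences of genes with low values. The log2 fold change was 1.05 for Pax2 (SE 0.15, limma adjusted p = 0.0378) and 0.80 for Gbx2 (SE 0.11, limma adjusted p = 0.0388). Both calls sat near the threshold. With every library brought to the same total of reads the adjusted p was 0.0640 for Pax2 and 0.0805 for Gbx2, with no filter on low values 0.0671 and 0.0600, while limma voom on the recovered reads gave 0.000974 and 0.00122. Of all genes 0.626% were called at equal totals, 0% with no filter and 8.35% by limma voom. Leaving out any single library ended the Gbx2 call, and leaving out any but WT replicate 1 ended the Pax2 call. The log2 fold changes were then 0.70 to 0.91 for Gbx2 and 0.87 to 1.22 for Pax2. Such fits leave 1 library in a genotype and called far fewer of all genes too. Whether the lost calls reflect these 2 genes or the smaller fits can therefore not be told apart.

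The other 12 tested genes did not pass. The next 3, Irx2, Irx5 and Lhx5, had unadjusted p-values under 0.05, all with both KO libraries above both WT libraries. Irx2, a patterning gene of the neural plate and heart, had PRO-seq FPKM of 2.77 and 2.36 in WT and 4.09 and 4.01 in KO (log2 fold change 0.50, SE 0.12, limma adjusted p = 0.108). Irx5 had 2.25 and 1.82 against 3.15 and 3.08 FPKM (0.44, SE 0.13, limma adjusted p = 0.162), and Lhx5, a forebrain gene, 1.32 and 0.640 against 1.73 and 1.92 FPKM (0.53, SE 0.20, limma adjusted p = 0.242). Lhx5 and Barx1 reached the filter only through their KO libraries. Msx1 and Msx2, dorsal neural tube and craniofacial genes downstream of BMP signals, had log2 fold changes of 0.11 (SE 0.15; -0.057 without WT replicate 2) and -0.23 (SE 0.13). Pax6, needed for eye and forebrain, had 1.34 and 1.80 FPKM in WT and 1.46 and 1.66 in KO, with overlapping groups. The median log2 fold change of the 14 was 0.23, beside 0.01 over all genes tested. On recovered reads, where genes with at least 10 reads in at least 2 libraries were tested, 32 of the 43 genes entered and 4 were called, all higher in KO (limma voom; 8.35% of all 16580 genes were called, 3.58% as higher). Irx2 (adjusted p = 0.0459) and Meis1, a TALE-class partner of Hox proteins (0.504 and 0.492 FPKM in WT, 1.06 and 0.953 in KO; adjusted p = 0.0471), joined Pax2 and Gbx2.

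At day 0 only Gbx2 and Irx2 reached a mean of 1 RNA FPKM, and neither was called by limma, with 1 of them under an unadjusted p of 0.05 (3.32% of all 11318 genes tested were called; limma voom on recovered reads also called 0 of 18 members, and 5.99% of all genes). The Gbx2 log2 fold change was 0.78 (SE 0.21, limma adjusted p = 0.110), and 0.51 to 1.04 when 1 library was left out. Irx2 had RNA FPKM of 1.22 and 1.81 in WT and 2.35 and 1.66 in KO (0.26, SE 0.20, limma adjusted p = 0.661), with overlapping groups. The KO effect on nascent RNA was set against that on steady-state RNA in 1 model over the 8 stem cell libraries. None of the 14 genes was called by limma, with 2 under an unadjusted p of 0.05, and 0% of all 15016 genes were called. For Gbx2 the difference of the effects (nascent minus steady state) was 0.03 (SE 0.26, limma adjusted p = 1.00), with a sign that turned under 4 alternatives, and for Pax2 it was 0.87 (SE 0.27, limma adjusted p = 0.554). The direction was the same in both assays for 10 of the 14 genes, 8 higher and 2 lower in KO, beside 65.9% of all 15016 genes. The summed PRO-seq FPKM of 16 pluripotency markers was 1053 and 1159 in WT and 807 and 952 in KO. Limma called 0 of the 15 tested in PRO-seq, with 4 under an unadjusted p of 0.05, and limma voom on recovered reads called 3 of 16. At day 0, 1 of the 16 fell (Dppa3, from 18.2 and 12.6 to 5.86 and 5.24 FPKM). Their part in the Gbx2 and Pax2 results was not tested.

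**Figure D2:**
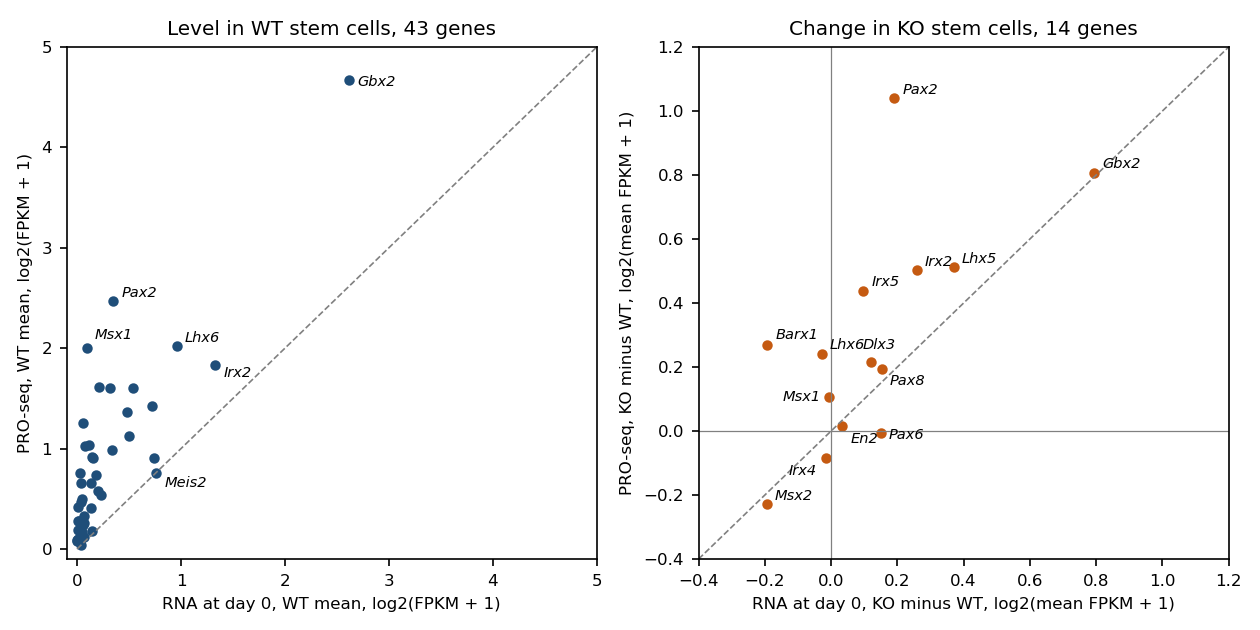
Left, mean WT PRO-seq level against mean WT day 0 RNA level of the 43 genes, both as log2(FPKM + 1); right, the KO minus WT difference of log2(mean FPKM + 1) in the 2 assays for the 14 genes with a mean of at least 1 FPKM in either; dashed lines mark equality. Nearly all points on the left lie above the line, and on the right Gbx2 lies on it while Pax2 lies far above it.

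During differentiation, RNA of Meis2, a TALE homeodomain partner of Pbx and Hox proteins, was the only one of the 43 called by limma at days 0, 3, 6 or 9, and it fell at day 6. Its FPKM at day 6 were 2.34 and 2.29 in WT and 1.02 and 1.13 in KO (log2 fold change -0.68, SE 0.12, limma adjusted p = 0.0179). Of the 43 genes 7 were tested at day 6 and 1 was called (13.3% of all 11184 genes were called, 7.92% as lower). Recovered reads behind these values were 426 and 434 in WT and 206 and 212 in KO. Without WT replicate 1 or WT replicate 2 the Meis2 call was lost, at log2 fold changes of -0.67 and -0.69. Those fits leave 1 WT library and called far fewer of all genes too. With no filter on low values the limma adjusted p of Meis2 was 0.0614 (1.73% of all 19237 genes were called). At day 3 Meis2 FPKM were 2.65 and 3.32 in WT and 1.12 and 2.08 in KO (-0.64, SE 0.20, limma adjusted p = 0.0714; limma voom on recovered reads, adjusted p = 0.0348). Leaving out 1 library gave log2 fold changes of -0.91 to -0.37 at day 3. At day 9 Meis2 FPKM were 1.42 and 1.52 against 1.24 and 1.28, a difference of -0.13 (SE 0.16, limma adjusted p = 0.661). In PRO-seq both KO values were above both WT values, at 0.683 and 0.701 against 0.887 and 1.24 FPKM. At day 0 the KO mean was the higher one but the groups overlapped, at 0.783 and 0.614 against 1.24 and 0.782 FPKM.

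The Meis2 profile in WT had its highest values at day 3 and in KO the values lay between 0.782 and 2.08 FPKM over the 4 days. Levels over days are a description, because normalization was done day by day. The difference between days was tested as the KO effect at a later day minus that at day 0, in 1 limma model over 16 RNA libraries in which 9 of the 43 genes were tested. None was called by limma at day 3, 6 or 9 (unadjusted p under 0.05 in 1, 2 and 2 of them; 1.36, 2.03 and 2.33% of all 12033 genes were called). For Meis2 the difference was -0.87 at day 3 (SE 0.24, limma adjusted p = 0.0947), -0.91 at day 6 (SE 0.24, limma adjusted p = 0.0719) and -0.36 at day 9 (SE 0.24, limma adjusted p = 0.476). Leaving out 1 library gave -1.14 to -0.60 for the day 3 difference and -1.08 to -0.75 for the day 6 difference.

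Gbx2 RNA was higher in both KO libraries at days 0 and 3 but not at days 6 and 9. FPKM at day 3 were 5.15 and 6.00 in WT and 6.62 and 7.33 in KO (0.28, SE 0.11, limma adjusted p = 0.111), and at day 6 they were 7.16 and 6.46 in WT and 3.11 and 6.34 in KO (-0.51, SE 0.25, limma adjusted p = 0.227). At day 9 the values overlapped, at 3.23 and 2.63 against 2.18 and 3.40. The KO effect at day 6 minus that at day 0 was -1.28 (SE 0.35, limma adjusted p = 0.0913). KO replicate 1 at day 6, the library with the lowest Gbx2 value, also stood apart in markers of other cells. Its summed FPKM was 49.6 over 15 visceral endoderm genes (16.1 in the other KO library, 4.496 and 6.12 in WT) and 83.0 over 10 trophoblast genes (34.6, and 28.1 and 30.3 in WT). Without KO replicate 2, and so with that library as the lone KO sample, the Gbx2 log2 fold change at day 6 was -0.92. Without KO replicate 1 of day 6 it was -0.087. The difference from day 0 was -1.70 and -0.86 in these 2 cases. The part of these markers in the Gbx2 values was not tested, and in bulk RNA fewer cells of a type and less RNA per cell cannot be told apart.

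**Figure D3:**
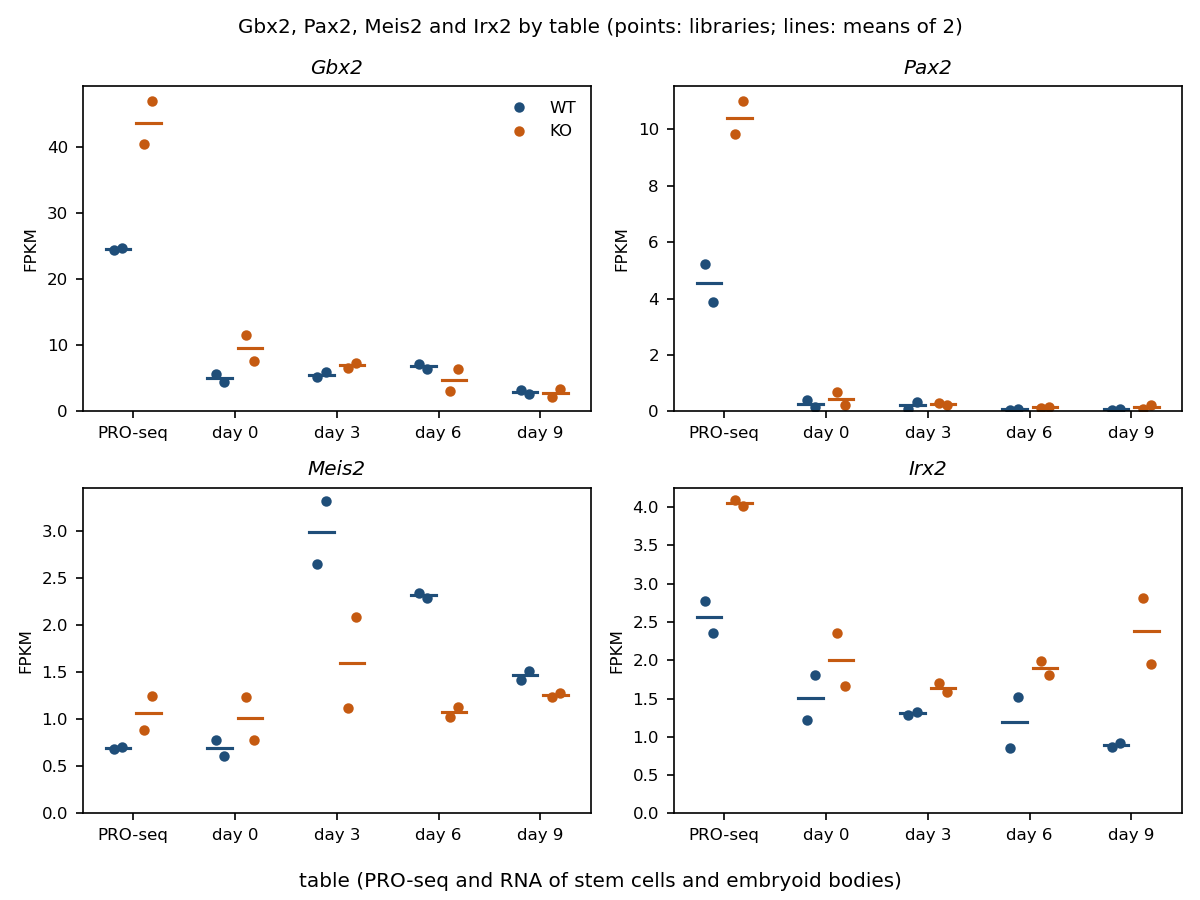
FPKM of Gbx2, Pax2, Meis2 and Irx2 in every library by table, with a short line at the mean of the 2 libraries of a genotype. KO points lie above WT points in PRO-seq for Gbx2, Pax2 and Irx2, and below them at days 3, 6 and 9 for Meis2.

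Iroquois genes were among the most abundant members in embryoid bodies. Irx2 RNA at day 9 was 0.862 and 0.920 FPKM in WT and 2.81 and 1.95 in KO (0.83, SE 0.18, limma adjusted p = 0.0529; limma voom on recovered reads, adjusted p = 0.0451). Leaving out 1 library gave log2 fold changes of 0.64 to 1.01. Irx2 reached the day 9 filter only through its KO libraries. At day 3 its FPKM were 1.28 and 1.33 against 1.70 and 1.58, and at day 6 they were 0.858 and 1.52 against 1.99 and 1.81. Both KO libraries were above both WT libraries at these 3 days. Irx1 and Irx4 are the neighbours of Irx2 on the chromosome, with no other protein-coding gene between them. At days 3 and 6 both KO libraries of Irx1 lay above both WT libraries. Its FPKM were 0.0160 and 0.0676 against 0.127 and 0.117 at day 3, and 0.0822 and 0.126 against 0.251 and 0.222 at day 6. Irx4, a gene of the heart ventricle, lay above at day 3 (0.0254 and 0 against 0.138 and 0.0399 FPKM). At day 6 it lay below (0.0652 and 0.0749 against 0.0352 and 0.0378 FPKM). Both genes had at most 17 reads in these libraries. At day 9 the groups overlapped for both. Irx1 FPKM were 0.465 and 0.0886 in WT and 0.960 and 0.317 in KO, and Irx4 FPKM 0.178 and 0.0819 against 0.212 and 0.0719. In PRO-seq, too, Irx1 (1.105 and 0.651 against 0.690 and 0.757 FPKM) and Irx4 (1.77 and 0.988 against 1.47 and 1.02 FPKM) overlapped between genotypes where Irx2 did not. Irx3 and Irx5, the neighbours in the other Iroquois cluster, had log2 fold changes of 0.40 (SE 0.13, limma adjusted p = 0.0831) for Irx3 at day 3 and 0.43 (SE 0.16, limma adjusted p = 0.124) for Irx5 at day 6. Each reached the filter of that day only through its KO libraries. Irx3 at day 9 had the opposite sign (1.76 and 1.26 FPKM in WT, 1.099 and 1.15 in KO).

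Pax8, a gene of thyroid and kidney, was among the 3 most abundant members at days 3 and 6. Its FPKM were 1.85 and 1.51 in WT and 2.12 and 2.88 in KO at day 3, and 1.94 and 2.30 against 2.27 and 3.63 at day 6, where the groups overlapped. At day 9 they were 1.31 and 0.912 against 1.23 and 3.03 (0.51, SE 0.29, limma adjusted p = 0.323). Leaving out 1 library gave log2 fold changes of 0.082 to 0.94 at day 9. At day 3 the tests covered 5 of the 43 genes and at day 9 they covered 8, and limma called 0 in each, with 4 and 1 under an unadjusted p of 0.05 (21.2% of all genes tested at day 3 and 5.46% at day 9 were called).

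Most members stayed below 1 FPKM at every day and were outside the main test. Many had higher values in both KO libraries. Both KO libraries lay above both WT libraries for 22 of the 43 genes at day 3 and 24 at day 6 (51.2 and 55.8%), and below them for 5 and 4. Among all genes with a read, 28.8 and 27% lay above at those days and 29.7 and 27.6% below. Among all genes with a mean under 1 FPKM 22.9 and 21.2% lay above, as did 18 of the 38 members under that mean at day 3 and 22 of the 36 at day 6. At days 0 and 9, 11 of 39 and 16 of 35 members under that mean lay above, beside 19.8 and 17.2% of all such genes. At day 9 the count was 18 above and 4 below (25.1 and 25.5% of all genes), and at day 0 it was 12 and 5 (21.6 and 20.6%). PRO-seq gave 19 above and 11 below (23.2 and 23.8%). These counts carry no test, and the median member had 6.5, 9 and 16 reads per library at days 3, 6 and 9.

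At each of days 3, 6 and 9 the KO libraries were above the WT libraries for 8 genes (Lhx3, Nkx2-2, Nkx2-5, Dlx5, Irx2, Irx5, En1 and Barx1) and below them for 1, Meis2, while 12.1 and 12.7% of 18277 genes with reads at those days did so. Nkx2-2, which specifies ventral neural tube and endocrine pancreas, had 8 and 5 reads in WT and 28 and 40 in KO at day 3, 6 and 6 against 30 and 32 at day 6, and 2 and 5 against 20 and 37 at day 9. En1, a midbrain-hindbrain gene, had 6 and 5 reads in WT and 39 and 32 in KO at day 6, and 6 and 4 against 23 and 29 at day 9. In stem cells En1 did not show this, with 10 and 7 reads in WT and 1 and 6 in KO at day 0 and 49 and 36 against 32 and 45 in PRO-seq. Nkx2-2 FPKM were higher in both KO libraries there too, on very few reads, with 1 and 0 against 5 and 1 at day 0 and 9 and 4 against 9 and 15 in PRO-seq. In both assays a WT and a KO library had equal reads, so their order in FPKM rests on the scaling between libraries.

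The LIM and craniofacial genes of that group had similarly few reads. Lhx3, a motor neuron and pituitary gene, had 4 and 0 reads in WT and 37 and 14 in KO at day 3. Barx1, a gene of stomach and tooth mesenchyme with the most CpG-rich promoter of the 34, had 1 and 7 against 20 and 23 at day 3 and 11 and 16 against 56 and 34 at day 9. Nkx2-5, a cardiac gene, had 4 and 0 against 30 and 16 reads at day 9, and Dlx5, a craniofacial and forebrain gene, 6 and 3 against 12 and 24. KO values of these genes were at most 56 reads, in libraries of at least 29018994 reads.

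On recovered reads limma voom called some of them. At day 3 it called Lhx3 (adjusted p = 0.0255), Nkx2-2 (0.0153) and Barx1 (0.0322) as higher and Meis2 as lower, of 19 members tested (24.1% of all 14245 genes were called). At day 6 it called Nkx2-2 (0.0149), En1 (0.00995), Lhx1 (0.0248) and Isl1 (0.0217) as higher and Meis2 as lower, of 22 (16.3% of 14464). At day 9 the calls were Nkx2-2 (0.0451) and Irx2, of 29 (5.63% of 14832). All of these but Meis2 and Irx2 passed the minimum of 10 reads through their KO libraries alone, as did 4, 7 and 5 of the members tested at days 3, 6 and 9, against 0 through WT libraries alone. A gene that enters that way had to be higher in KO, so these counts do not bear on the direction of the members.

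**Figure D4:**
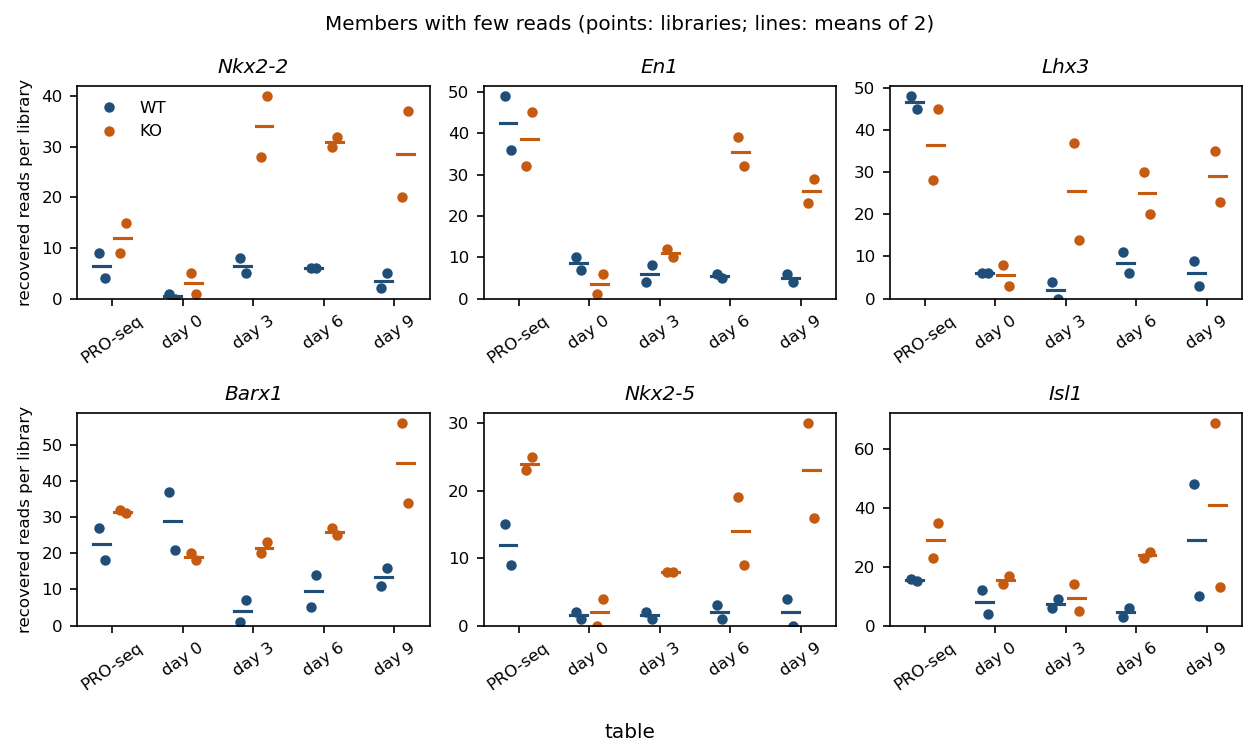
Recovered reads of Nkx2-2, En1, Lhx3, Barx1, Nkx2-5 and Isl1 in every library by table, with a short line at the mean of the 2 libraries of a genotype. From day 3 or 6 on the KO points of Nkx2-2, En1, Lhx3, Barx1 and Nkx2-5 lie above the WT points, while Isl1 overlaps at day 9. In PRO-seq there is no such gap for Nkx2-2, En1 and Lhx3.

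At day 9 several members differed between the replicate numbers in both genotypes. Lhx1, which acts in the head organizer and the early kidney, was the most abundant member at day 9 and had 9.36 and 3.19 FPKM in WT and 6.98 and 0.816 in KO (-0.79, SE 0.69, limma adjusted p = 0.522). The sign rested on KO replicate 2, without which the difference was 0.28, while without KO replicate 1 the difference was -1.86. Lhx1 had at most 12 reads in any library of day 6. Msx2 had 2.45 and 0.563 FPKM in WT and 2.69 and 0.850 in KO. Isl1, a motor neuron and heart progenitor gene, had 0.628 and 0.121 against 0.887 and 0.160, and Six2, a kidney progenitor gene, 0.705 and 0.318 against 1.15 and 0.222. In 13 of the 43 genes both replicate 1 libraries were above both replicate 2 libraries, and in 1 they were below, beside 15.2 and 12.8% of all genes with a read. The summed FPKM of 16 mesoderm markers followed the same split, at 57.1 and 26.2 in WT and 50.2 and 19.7 in KO, and so did that of 10 trophoblast markers, at 163.6 and 102 in WT and 169 and 69.6 in KO.

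Some members outside the main test had groups that did not overlap in RNA of stem cells or embryoid bodies, in both directions. At day 0 KO lay below WT in 5 of them (Barx1, En1, Pitx1, Pax9 and Dlx6) and above in 11. Barx1 FPKM at day 0 were 0.840 and 0.503 in WT and 0.489 and 0.436 in KO. Lhx6 lay below at day 3 (0.628 and 1.05 FPKM in WT, 0.611 and 0.454 in KO). It lay below at day 6 too, and above at day 9. Meis1 had 0.144 and 0.161 FPKM in WT and 0.474 and 0.432 in KO at day 0, and Lhx5 had 0.237 and 0.286 against 0.645 and 0.615. Limma voom on recovered reads gave adjusted p-values of 0.0595 and 0.1001 for them. Pax6 at day 9 had 0.361 and 0.422 FPKM in WT and 0.879 and 0.864 in KO (limma voom, adjusted p = 0.0612). En2, the partner of En1 in the midbrain, had groups without overlap at days 3 and 9. Its FPKM were 0.681 and 0.778 in WT and 0.812 and 0.919 in KO at day 3 (limma voom, adjusted p = 0.462). At day 9 they were 0.757 and 0.809 against 0.991 and 1.26 (limma voom, adjusted p = 0.303). At day 6, where En2 was in the main test, the groups overlapped, with 0.901 and 1.101 FPKM in WT and 1.03 and 1.47 in KO (0.16, SE 0.15, limma adjusted p = 0.492). Lhx2, Dlx3, Nkx6-1, Pitx1 and Msx1 had at most 0.555 FPKM in any RNA library.

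Few reads were found for several of the early neural plate, eye and Dlx genes. Six3, Six6, Emx2 and Nkx2-1, which act in eye, cortex and ventral forebrain, had at most 23 reads in any RNA library, and Dlx1, Dlx2 and Dlx6 at most 8. The WT libraries of Dlx1 had 45 and 28 reads in PRO-seq against 18 and 24 in KO, while those of its neighbour Dlx2 had 22 and 14 against 14 and 13. Pax3, Pax5, Pax7 and Pax9 had at most 20 reads in any RNA library, and Lhx8 and Lhx9 at most 16. Among the other pairs of chromosomal neighbours, Six2 had PRO-seq FPKM of 0.916 and 1.16 in WT and 0.297 and 0.617 in KO, and Six3 0.0538 and 0 against 0.0928 and 0.113. Pax1, the neighbour of Nkx2-2, had 7 and 12 reads in WT and 10 and 16 in KO at day 3, with overlapping groups. Its groups did not overlap at day 6 (11 and 11 against 21 and 19 reads) or day 9 (14 and 4 against 20 and 28), where KO was higher.

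Genes that act with or upstream of these regulators were counted beside them. Of 25 cofactors (Pbx, Tle, Lmo and related genes) 14 were tested at days 3 and 6. At day 3, 2 rose and 4 fell, among them Lmo4, a LIM-domain partner (5.28 and 4.97 FPKM in WT, 9.48 and 7.76 in KO, limma adjusted p = 0.0184), and Tgif1 (65.6 and 72.4 against 45.2 and 50.03, limma adjusted p = 0.0151). At day 6, 2 rose and 1 fell. Limma called 0 of 14 at days 0 and 9 and 0 of 15 in PRO-seq (unadjusted p under 0.05 in 4, 3 and 6, and 3, 1 and 2 called by limma voom on recovered reads). Of 75 other homeobox genes outside the Hox clusters, 2 of 10 tested rose and 4 fell at day 3, and 3 of 8 rose and 1 fell at day 6. At day 9 limma called 0 of 12, with 2 under an unadjusted p of 0.05 and 0 called by limma voom. Vax2, a gene of the ventral eye, fell (7.34 and 8.62 to 1.72 and 3.39 FPKM at day 3, limma adjusted p = 0.0163).

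Signals known to induce these genes and markers of the cells around them also differed. Of 21 signalling genes 3 of 10 tested rose and 1 fell at day 3, and 4 of 11 rose and 1 fell at day 6. Wnt8a rose at days 3, 6 and 9 (at day 6 from 1.09 and 0.876 to 4.80 and 3.79 FPKM, limma adjusted p = 0.00409), and Bmp4 at days 3 and 6 (at day 6 from 1.00 and 1.17 to 4.83 and 3.28, limma adjusted p = 0.00876). At day 9, 2 of 15 rose and 1 fell, of which Cyp26a1, which degrades retinoic acid, went from 12.9 and 8.41 to 4.16 and 1.43 FPKM (limma adjusted p = 0.0466). Of 16 pluripotency markers, all tested, 1 rose and 9 fell at day 3, 1 rose and 5 fell at day 6 and 1 fell at day 9. Of 15 visceral endoderm markers 2 of 2 tested rose at day 3, 3 of 4 at day 6 and 3 of 8 at day 9, and their summed FPKM was 4.36 and 4.70 in WT and 14.3 and 8.88 in KO at day 3 and 20.3 and 12.7 against 39.9 and 24.7 at day 9. Among 14 neural progenitor markers 2 rose and 1 fell of 6 tested at day 3, and 1 rose and 1 fell of 6 at day 6. Nes rose at day 3 from 1.90 and 2.06 to 10.5 and 8.37 FPKM (limma adjusted p = 0.00327). The summed FPKM of the 14 did not rise at day 3, with 74.3 and 78.1 in WT and 71.6 and 73.4 in KO. Of 16 mesoderm markers 1 of 3 tested fell at day 3 and 1 of 4 rose at day 6. Of 8 neural crest markers 1 of 3 tested fell at day 3 and 1 of 4 at day 6. Of 10 trophoblast markers 3 of 5 tested rose and 2 fell at day 3, and 1 of 8 rose and 1 fell at day 9. Beside these counts and those of cofactors and other homeobox genes, 21.2, 13.3 and 5.46% of all genes tested were called at days 3, 6 and 9. The part of these markers in the member results was not tested.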

How the data were processed

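The 43 genes and all gene lists were chosen with earlier results of these data known. Expression came as FPKM values in 5 tables that the authors deposited, 1 for each RNA day and another for PRO-seq, with 2 libraries of each genotype in a table. For RNA-seq the submitters' processing notes name TopHat, DESeq2 and mm9. For PRO-seq, per the submitters' processing notes, the tools were cutadapt 1.14, Trimmomatic 0.33, Bowtie 1.1.2 and DESeq2, with mm9 and the fly build dm3. Per the labels' protocols, Drosophila nuclei were added to the run-on, and no fly value was used here. How strand and multi-mapping reads were handled, and which annotation served for counting, is not given in the sources used here. Values of genes with close paralogs or antisense partners are therefore uncertain.

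Whole reads were recovered from the FPKM steps (100% of values above 0, tolerance 0.01). Each table was tested with limma 3.58.1 in R 4.3.3 (trend, 2-sided) on log2(FPKM + 1). Genes entered at a mean of 1 FPKM or more over a table's 4 libraries, and p-values were adjusted by Benjamini-Hochberg over all genes tested and called at an adjusted p under 0.05. Differences between days and between assays were contrasts in 1 limma model. limma voom on recovered reads took genes with at least 10 reads in at least 2 libraries. Functions were tested on simulated data. Replicates differed by chi-square statistics of 8.86 to 50.8 per degree of freedom, so none was a copy. Spread is given by each library's value or SE. Named were every member called in a table, the 3 most abundant members of each table, neighbours of named genes, Kmt2b and up to 3 called genes per list (some that qualified are not reported here); other members were named after their values were seen. The lists were cofactors, other homeobox genes, inducing signals, and markers of pluripotency, visceral endoderm, mesoderm, neural progenitors, neural crest and trophoblast. Alternatives were a pseudocount of 0.1, no filter, equal read totals, limma voom, a replicate block, a spread pooled over the 16 RNA libraries and leaving out each library. Peak lists of the series were not used here.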

Additional observations from a re-analysis of the deposited data

How the results depend on the processing

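Counts of called members depended on the processing. Of 26 member differences with a test, 3 changed sign under an alternative, and none of these was called with all libraries in the test. Leaving out 1 library gave -1.86 to 0.28 for Lhx1 at day 9 (above 0 without KO replicate 2), -0.057 to 0.28 for Msx1 in PRO-seq (below 0 without WT replicate 2) and -0.24 to 0.29 for the nascent minus steady-state difference of Gbx2 (below 0 without WT replicate 1 of day 0, KO replicate 2 of day 0 or KO replicate 2 of PRO-seq). With a pseudocount of 0.1 the last was -0.050. With no filter on low values the counts were 1 at day 3 (Nkx2-5), 2 at day 6 (En1 and Nkx2-2) and 0 in PRO-seq. Of all genes 5.03, 1.73 and 0% were then called, so the count of 0 in PRO-seq does not bear on the members. For the KO effect minus that at day 0 the counts were 1, 2 and 3 at days 3, 6 and 9 (0.633, 1.35 and 1.69% of all genes). Limma voom on recovered reads gave 4, 5, 2 and 4 at days 3, 6 and 9 and in PRO-seq. Equal read totals gave 0 in PRO-seq (0.626% of all genes). A spread pooled over the 16 RNA libraries gave 1 at day 3 (Meis2) and 1 at day 9 (Irx2), beside 15.9% of all genes on each of these days. Leaving out 1 library gave 0 to 1 at day 0, 0 to 1 at day 3, 0 to 2 at day 6, 0 to 2 at day 9 and 0 to 1 in PRO-seq, and for the day contrasts 0 to 1 at day 3, 0 to 1 at day 6 and 0 at day 9. In these fits the lone library is assumed to vary like the other genotype, and the share of all genes called moved too. Day 9 calls came without KO replicate 1 (Pax8 higher, Lhx1 lower) and without KO replicate 2 (Irx2 higher). The cause of these shifts was not tested. Replicate numbers were not established as pairs, since each table has 2 of them and no label ties them to a culture; deviations of same-numbered libraries correlated across genes at 0.57, 0.36, 0.25 and 0.31 at days 0, 3, 6 and 9 and 0.36 in PRO-seq. With a replicate block the counts were 1 at day 0 (Gbx2), 2 at day 3 (Gbx2 and Meis2), 1 at day 6, 1 at day 9 (Irx2) and 3 in PRO-seq, and 1 and 2 for the day contrasts at days 3 and 6. That fit called more of all genes too, namely 17.7% at day 0, 33.1% at day 3, 22.7% at day 6, 12.2% at day 9 and 8.88% in PRO-seq. At days 0, 3, 6 and 9, 26, 25, 22 and 14 of the 43 genes had a mean under 10 reads per library, which limits the precision of their values.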
